A study of Mus musculus with 6 samples.

Results

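A set of 10 genes of Wnt feedback and of gastric progenitor cells was followed in mouse parietal cells: Axin2, Rnf43, Znrf3, Nkd1, Lgr4, Lgr5, Lrig1, Stmn1, Bmi1 and Ascl2. They were chosen by symbol, with earlier results of these data known, and all 10 were found among the 23284 genes of the deposited table. The study measured RNA of tdTomato-positive parietal cells, which secrete the acid of the stomach, after flow sorting from noggin mice (3 libraries) and control mice (3 libraries). Noggin mice, labelled Transgenic-Tom-nog, carried 2 transgenes under the H+/K+ ATPase promoter of parietal cells, H+/K+-Cre and H+/K+-Nog, together with the reporter allele Rosa26-tdTom. Noggin is a secreted protein that binds and blocks bone morphogenetic proteins (BMPs). The control genotype was labelled Transgenic-Tom. Both groups carried the tdTomato reporter. The sources used here do not give the age, sex or strain of the mice, or whether a replicate was a single animal or a pool. The labels call the libraries of each group biological replicates.

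In canonical Wnt signalling, ligands bound to Frizzled and Lrp5 or Lrp6 stabilise beta-catenin, which acts with Tcf and Lef factors in the nucleus. Cells limit the signal through genes that the pathway itself induces: Rnf43 and Znrf3 are membrane ubiquitin ligases that remove Frizzled from the cell surface, Axin2 is a scaffold of the complex that degrades beta-catenin, and Nkd1 binds Dishevelled and dampens the signal. Lgr4 and Lgr5 are receptors for R-spondins, which relieve the ligases' block. In the stomach, Lgr5 marks stem cells of the antrum and a subset of chief cells of the corpus. Lrig1 and Stmn1 have been used to mark progenitor cells of the corpus gland, and Bmi1 and Ascl2 are known from stem cells of the intestine.

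None of the 10 genes passed the test between noggin and control cells. Values are FPKM (fragments per kilobase of transcript, scaled to the mapped fragments of a library) as deposited, and the depth behind them is unknown. Of the 10 genes, 6 reached 1 FPKM in at least 3 libraries and were tested: Rnf43, Znrf3, Lgr4, Lrig1, Stmn1 and Bmi1. The test was limma's moderated test on log2(FPKM + 1), a scale that understates the change of low genes, and a gene was called at a Benjamini-Hochberg adjusted p under 0.05 over all 10644 genes tested. Of the 6 tested genes 0 were called, where 2.44% of all tested genes were called in either direction, 1.75% higher and 0.695% lower in noggin cells. At an unadjusted p under 0.05 there were 3 of the 6, Lrig1, Bmi1 and Stmn1, where 26.7% of all tested genes passed that mark. The noggin and control libraries did not overlap for 4 of the 6, with Lrig1, Bmi1 and Znrf3 lower and Stmn1 higher in noggin cells, where 38.3% of all tested genes did not overlap, 18.0% lower and 20.3% higher. The 6 had a median log2 fold change of -0.53, with 5 below 0, and all tested genes had a median of -0.03, with 51.7% below 0. The other 4 genes, Axin2, Nkd1, Lgr5 and Ascl2, did not reach that level, and their groups overlapped. With no filter on low values all 10 were tested, and 0 were called.

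**Figure D1:**
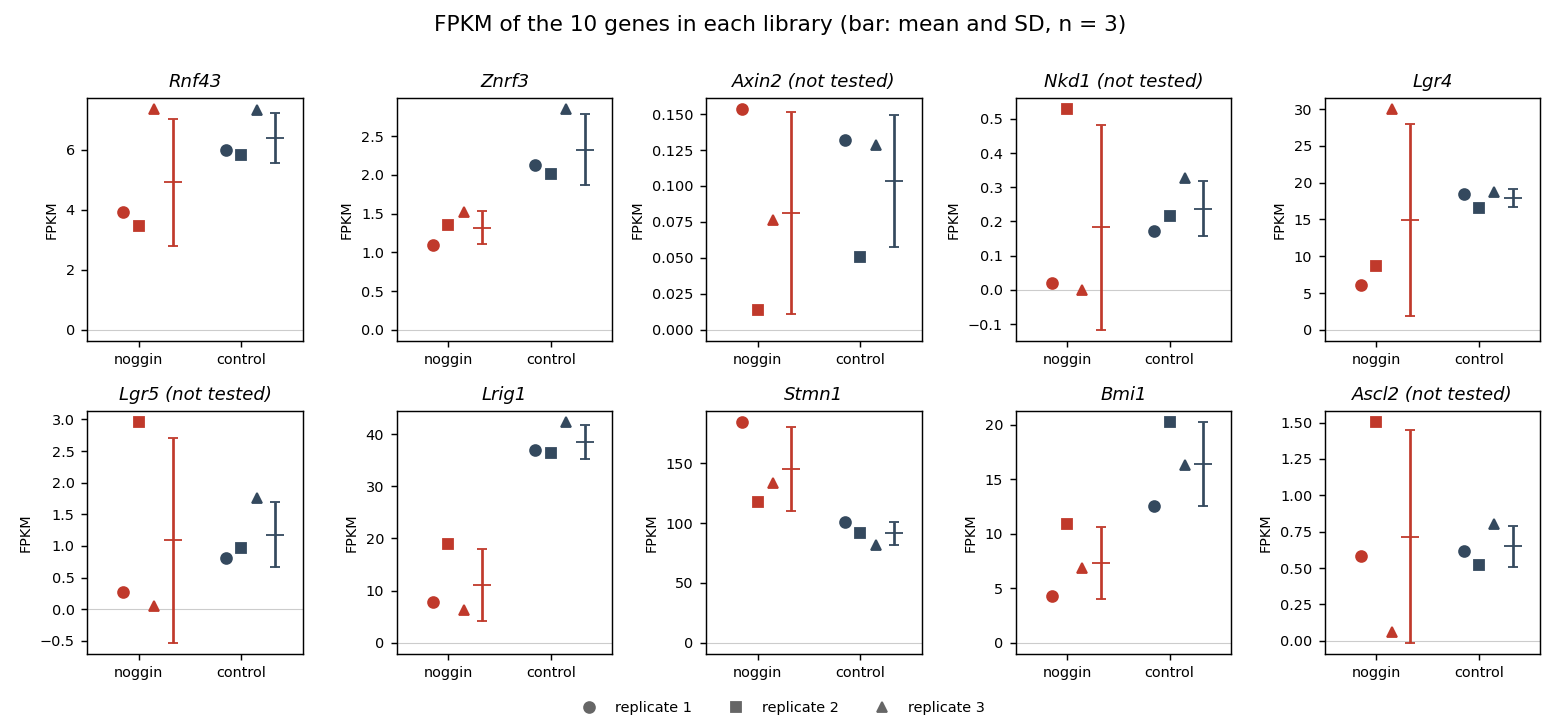
FPKM (vertical axes, 1 panel a gene, each with its own scale) of the 10 genes in the 3 noggin and 3 control libraries, with symbols for the replicate number and a bar for the mean and SD. Lrig1, Bmi1 and Znrf3 lie lower and Stmn1 higher in every noggin library than in any control library, and the other 6 genes overlap between the groups.

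The labels were checked against the transgene and the cell type. Nog was at 2734, 2289 and 2281 FPKM in noggin replicates 1 to 3, against 1.97, 0.871 and 1.09 FPKM in control replicates 1 to 3, and was called in the main test and all 16 alternatives. The proton pump genes Atp4a and Atp4b, which define parietal cells, were at 5433 FPKM or more and at 16877 FPKM or more in each library. Atp4a was lower without overlap, at 5433 to 7619 FPKM in noggin and 13385 to 16218 FPKM in control libraries. Its log2 fold change was -1.21 (SE 0.409, limma adjusted p = 0.124). Atp4b was higher without overlap, at 21468 to 25184 FPKM in noggin and 16877 to 21417 FPKM in control libraries. It was the largest part of each parietal sum that follows. Summed over 10 parietal cell genes, the level was 28529 to 31803 FPKM in noggin and 32524 to 39625 FPKM in control libraries, with 8 genes lower and 1 higher without overlap. Beside this and the marker counts below, 18.0% of all tested genes were lower and 20.3% higher without overlap. The marker sums, parietal ones included, are not scaled to the total FPKM of a library, which did not overlap between the groups. That total was 1183213, 797168 and 1188186 in noggin replicates 1 to 3, and 633253, 669124 and 595736 in control replicates 1 to 3. Transcripts of other cell types were present. Summed over the markers found in the table, 6 chief cell genes lay at 131323 to 357848 FPKM in noggin and 60942 to 112019 FPKM in control libraries, with 2 of the 6 higher without overlap. The 5 mucous neck cell genes lay at 10765 to 25864 FPKM in noggin and 2456 to 3362 FPKM in control libraries, with all 5 higher without overlap. The 10 leukocyte genes lay at 19.7 to 94.8 FPKM in noggin and 1.43 to 2.24 FPKM in control libraries, with 5 higher without overlap. The 7 mast cell genes lay at 185 to 282 FPKM in noggin and 37.3 to 62.9 FPKM in control libraries, with 5 higher and 1 lower without overlap. The lower gene, Kit, was at 6.59 to 10.3 FPKM in noggin and 32.4 to 43.2 FPKM in control libraries. Kit was the largest part of the control sums of mast cell genes. The 5 pit cell genes lay at 23002 to 49631 FPKM in noggin and 21882 to 26168 FPKM in control libraries, sums that overlap, with 0 higher and 1 lower without overlap. The 9 genes of stroma and endothelium summed to 1.89 to 7.40 FPKM in noggin and 1.21 to 1.81 FPKM in control libraries, with Cdh5 listed at 0 in all 6. Noggin replicate 3 stood apart, with 542 of the tested genes listed at 0, against 19 to 34 in each of the other 5 libraries, and the Spearman correlation across genes was 0.833 to 0.911 between noggin libraries and 0.975 to 0.980 between control libraries. The part of these differences in the results on the 10 genes was not tested. In sorted bulk RNA, fewer cells of a type and less RNA per cell cannot be told apart.

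In control cells the 10 genes spanned levels from Stmn1, at 91.6 ± 9.69 FPKM, to Axin2, at 0.103 ± 0.0458 FPKM (mean ± SD, n = 3). In order of control level, Stmn1 was followed by Lrig1, Lgr4, Bmi1, Rnf43, Znrf3, Lgr5, Ascl2, Nkd1 and Axin2. Among neighbours in that order, the control values overlapped for Lgr4 and Bmi1, and the lowest Lgr5 value, 0.808 FPKM, was barely above the highest Ascl2 value, 0.805 FPKM. In noggin cells Stmn1 again had the highest level of the 10, at 145 ± 34.8 FPKM (n = 3). Lgr4, Lrig1, Bmi1 and Rnf43, at means of 14.9, 11.0, 7.31 and 4.91 FPKM in noggin cells, overlapped there. Lower down, the noggin values of Lgr5 and of Ascl2 overlapped those of Znrf3, Nkd1 and Axin2.

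The promoters of the 2 genes with the strongest fold changes, Lrig1 and Bmi1, are shown with that of Axin2, the Wnt target with the lowest level of the 10 in these cells. Each run is the 250 bases upstream of the RefSeq start on GRCm38.p6, the same assembly as mm10, read 5′ to 3′ on the gene's strand. Capitals mark matches, on either strand, to the 3 motifs searched: TCAAAG, the core bound by Tcf and Lef factors, GGCGCC, a GC-rich motif of BMP-regulated Smads, and CCAAT, the box bound by NF-Y. The run of Lrig1 holds CCAAT, that of Bmi1 holds GGCGCC and that of Axin2 holds none of the 3, so no matches overlap.
Lrig1 (chr6:94700146-94700395, minus strand): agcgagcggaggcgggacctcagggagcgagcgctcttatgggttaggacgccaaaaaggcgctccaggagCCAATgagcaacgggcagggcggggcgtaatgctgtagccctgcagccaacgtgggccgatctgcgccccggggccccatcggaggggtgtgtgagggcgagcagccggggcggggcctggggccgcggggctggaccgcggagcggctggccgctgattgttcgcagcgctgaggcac
Bmi1 (chr2:18676768-18677017, plus strand): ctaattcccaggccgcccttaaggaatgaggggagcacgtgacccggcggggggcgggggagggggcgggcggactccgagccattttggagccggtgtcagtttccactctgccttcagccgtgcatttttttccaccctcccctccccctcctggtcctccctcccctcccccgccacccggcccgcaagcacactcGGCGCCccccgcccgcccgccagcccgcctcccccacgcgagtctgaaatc
Axin2 (chr11:108920099-108920348, plus strand): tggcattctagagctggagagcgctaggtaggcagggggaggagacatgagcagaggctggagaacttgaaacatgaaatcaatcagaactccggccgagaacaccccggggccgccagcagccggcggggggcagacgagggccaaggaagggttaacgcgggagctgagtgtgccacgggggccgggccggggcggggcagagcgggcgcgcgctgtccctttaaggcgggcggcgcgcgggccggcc
The RefSeq table held 8 promoters for 7 of the 10 genes, with no entry for Znrf3, Lgr5 and Stmn1. TCAAAG was in 0 of the 8, and in 13.8% of all 32851 promoters over the same length. GGCGCC was in that of Bmi1 alone among the 8, and in 9.59% of all promoters. CCAAT was in those of Lrig1, Lgr4 and Ascl2, and in 33.8% of all promoters. The GC content was 71.6% for Lrig1, 70.4% for Bmi1 and 69.2% for Axin2, with a median of 52.4% over all promoters. These matches describe the letters of the windows only.

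Lrig1 encodes a membrane protein with leucine-rich repeats that promotes the degradation of EGF receptor family members, and its fold change was the strongest of the 6. The gene lies on chromosome 6, 94604529 to 94700158, on the minus strand (mm10, GENCODE M21). Lrig1 was at 7.76, 19.0 and 6.36 FPKM in noggin replicates 1 to 3, against 37.0, 36.3 and 42.3 FPKM in control replicates 1 to 3. The highest noggin value was well below the lowest control value, and the other noggin values were lower still. The means were 11.0 ± 6.91 FPKM in noggin and 38.5 ± 3.26 FPKM in control cells (SD, n = 3 each). The log2 fold change of Lrig1 was -1.86 (SE 0.378, 95% interval -2.74 to -0.98), with a limma adjusted p = 0.0516, just above the threshold. Of all tested genes, 0.620% had a lower fold change. Ranked within each library among the tested genes, Lrig1 stood at the percentiles 47.5, 64.5 and 40.3 in the noggin libraries and 80.3, 79.1 and 82.0 in the control libraries, a measure that does not change with the scaling of a library. Without noggin replicate 2, which held the noggin value nearest to controls, Lrig1 was called lower (-2.30, adjusted p = 0.0141), where 19.0% of all tested genes were called. It was also called lower after rescaling to the same total FPKM (-2.52, adjusted p = 0.0332, 8.93% of all tested genes called) and after quantile normalization (-1.94, adjusted p = 0.0248, 4.45% called). A filter of 5 FPKM (adjusted p = 0.0440, 3.77% called) and a correction for the median transcript length (-2.02, adjusted p = 0.0465, 1.69% called) gave the same call. The adjusted p of Lrig1 ran from 0.0141 to 0.254 over 16 alternatives, and its fold change was below 0 in each. Its 3′ end overlaps Slc25a26 on the other strand, which was at 5.72 to 8.74 FPKM in noggin and 7.10 to 7.97 FPKM in control libraries.

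Its relatives were lower as well, and none passed. Lrig2 was at 0.864, 0.784 and 0.160 FPKM in noggin cells and at 1.77, 1.49 and 1.55 FPKM in control cells (log2 fold change -0.73, SE 0.304, limma adjusted p = 0.175). Lrig3 was at 4.45, 4.65 and 0.0230 FPKM in noggin cells and at 5.37, 5.36 and 6.92 FPKM in control cells (-1.12, SE 0.653, adjusted p = 0.30). For Lrig3 noggin replicate 3 stood far below the other 2 noggin libraries. Across 10 tested negative regulators of growth factor receptors, Lrig2 and Lrig3 included, 0 were called, with a median log2 fold change of -0.46 beside -0.03 for all tested genes. Under rescaling to the same total FPKM, which moved the median of all tested genes to -0.63, that list was at -0.87. It was at -0.10 after quantile normalization, at -0.20 and -0.18 after the corrections for the median and the longest transcript, and at -0.15, with 4 of 8 tested genes negative, without control replicate 1. Of these 10, Errfi1, a feedback inhibitor of the EGF receptor, was at 78.9 ± 25.1 FPKM in noggin and 40.9 ± 5.63 FPKM in control cells (0.88, SE 0.280, adjusted p = 0.114), and Cblb, a ubiquitin ligase, was at 1.09 ± 0.169 and 2.21 ± 0.410 FPKM in these groups (-0.62, SE 0.282, adjusted p = 0.206; n = 3 each).

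Bmi1, a ring finger subunit of Polycomb repressive complex 1, was lower without overlap. It lies on chromosome 2, 18677018 to 18686629, on the plus strand. Bmi1 was at 4.24, 10.9 and 6.81 FPKM in noggin replicates 1 to 3, against 12.6, 20.2 and 16.3 FPKM in control replicates 1 to 3. Noggin replicate 2 again came nearest to the controls. The log2 fold change of Bmi1 was -1.12 (SE 0.364, limma adjusted p = 0.119). It was called lower without noggin replicate 2 (-1.42, adjusted p = 0.0363, 19.0% of all tested genes called). After rescaling to the same total FPKM it was also called lower (-1.76, adjusted p = 0.0476, 8.93% called). Its fold change was below 0 in all 16 alternatives. Of 17 other subunits of that complex tested, 0 were called, 7 had positive and 10 negative log2 fold changes, and the median was -0.03, the same to 2 decimals as for all tested genes. After rescaling to the same total FPKM 16 of the 17 were negative, with a median of -0.60 beside -0.63 for all tested genes. Pcgf2, the nearest relative of Bmi1, was at 1.70, 0.628 and 0.927 FPKM in noggin cells and at 1.02, 0.754 and 1.03 FPKM in control cells. The 3 subunits with the smallest p were Scmh1, at 15.8 ± 3.67 FPKM in noggin and 8.55 ± 0.875 FPKM in control cells (0.80, SE 0.266, adjusted p = 0.123), Ring1 at -1.06 (SE 0.487, adjusted p = 0.208) and Pcgf6 at -1.28 (SE 0.631, adjusted p = 0.232).

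Stmn1 encodes stathmin, a protein that destabilises microtubules and is abundant in dividing cells, and it had the only positive fold change among the 6. It lies on chromosome 4, 134468320 to 134473843, on the plus strand. Stmn1 was at 184, 118 and 133 FPKM in noggin replicates 1 to 3, against 101, 91.5 and 81.9 FPKM in control replicates 1 to 3. All 3 noggin values were above the highest control value. The log2 fold change of Stmn1 was 0.64 (SE 0.216, limma adjusted p = 0.125). It was called higher without noggin replicate 2 (0.78, adjusted p = 0.0481), where 19.0% of all tested genes were called. In 2 of 16 alternatives the direction turned: -0.07 after rescaling to the same total FPKM and -0.08 after a correction for the longest transcript. The median of all tested genes was -0.63 after that rescaling. Stmn1 stayed positive after quantile normalization (0.18) and after the correction for the median transcript length (0.50). Its percentile within each library was 92.9, 91.5 and 91.5 in noggin and 92.3, 90.6 and 90.1 in control cells, so that the ranks of the groups overlapped. Stmn2 and Stmn4 were at 0.129 FPKM or less throughout. Stmn3, a stathmin of neurons and other cells with neuroendocrine traits, was at 0.849, 2.86 and 0.995 FPKM in noggin cells and at 0.116, 0.132 and 0.228 FPKM in control cells, without overlap. It reached 1 FPKM in 1 library and was not tested. Of 8 enteroendocrine markers, 3 were higher in noggin libraries without overlap, where 20.3% of all tested genes were. The sums of the 8 overlapped, at 1905 to 28657 FPKM in noggin and 454 to 2713 FPKM in control libraries. Gast, which encodes gastrin, was the largest part of the highest sums, at 22.3, 26026 and 14693 FPKM in noggin and 203, 387 and 2226 FPKM in control cells. The part of enteroendocrine cells in the Stmn3 values was not tested.

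Genes of proliferation, which Stmn1 accompanies in dividing cells, gave 1 call among 22 tested, where 2.44% of all tested genes were called, 1.75% higher. Of the 22, 16 had positive and 6 negative log2 fold changes, where 51.7% of all tested genes were below 0. The median of the 22 was 0.23, beside -0.03 for all tested genes. After rescaling to the same total FPKM 6 were positive and 16 negative, with a median of -0.40 beside -0.63. In that setting 0 were called, and without noggin replicate 2 there were 3, where 19.0% of all tested genes were called. Single libraries moved the median of the 22: it was 0.039, with 11 positive, without noggin replicate 2 and 0.034, with 12 positive, without control replicate 3, against 0.46 without noggin replicate 1 and 0.48 without control replicate 1. H2afz, a histone variant gene, rose to 591, 443 and 565 FPKM in noggin cells, against 264, 294 and 223 FPKM in control cells (1.03, SE 0.206, limma adjusted p = 0.04997). That call held in 2 of 16 alternatives, with adjusted p from 0.0200 to 0.353, and was lost without each library in turn apart from noggin replicate 2, at log2 fold changes of 0.92 to 1.12. It was 0.31 after rescaling to the same total FPKM, 0.39 after quantile normalization and 0.32 after the correction for the longest transcript. Birc5, which encodes survivin, a protein of cell division, was at 42.3 ± 5.14 FPKM in noggin and 21.2 ± 7.72 FPKM in control cells (1.02, SE 0.299, adjusted p = 0.101; n = 3 each). Mcm4, a subunit of the replicative helicase, was at 0.660, 5.34 and 0.0391 FPKM in noggin cells and 7.95, 7.14 and 5.50 FPKM in control cells (-1.81, SE 0.636, adjusted p = 0.132).

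The membrane ubiquitin ligases were both below 0 in fold change, and neither passed. Znrf3 lies on chromosome 11, 5276324 to 5444847, on the minus strand, and Rnf43 on the same chromosome, 87662722 to 87735539, on the plus strand. Znrf3 was at 1.09, 1.35 and 1.52 FPKM in noggin replicates 1 to 3, against 2.13, 2.01 and 2.85 FPKM in control replicates 1 to 3, without overlap. Its log2 fold change was -0.52 (SE 0.286, limma adjusted p = 0.279), and 0.03 after the correction for the median transcript length. Rnf43 was at 3.91, 3.46 and 7.34 FPKM in noggin replicates 1 to 3, against 5.98, 5.84 and 7.33 FPKM in control replicates 1 to 3. Noggin replicates 1 and 2 were below all controls, and noggin replicate 3 was level with the highest control. The log2 fold change of Rnf43 was -0.37 (SE 0.342, adjusted p = 0.502), and -0.65 without noggin replicate 3 (adjusted p = 0.0925). The log2 ratio of Rnf43 to Znrf3, each with 1 FPKM added, was 1.23, 0.92 and 1.73 in noggin cells and 1.16, 1.19 and 1.11 in control cells. The mean difference of 0.14 did not pass a two-sided exact permutation test (p = 0.7), whose smallest possible p is 0.1 for 3 libraries a group.

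The R-spondin receptors differed in level and in spread. Lgr4 lies on chromosome 2, 109917647 to 110014257, on the plus strand. Lgr4 was at 6.07, 8.73 and 30.0 FPKM in noggin replicates 1 to 3, against 18.4, 16.5 and 18.7 FPKM in control replicates 1 to 3. The noggin libraries lay on both sides of the controls, with replicate 3 above and replicates 1 and 2 below all of them. The log2 fold change of Lgr4 was -0.55 (SE 0.515, 95% interval -1.75 to 0.64, limma adjusted p = 0.510). Without noggin replicate 3 it was called lower, at -1.18 (SE 0.213, adjusted p = 0.0435), where 4.65% of all tested genes were called. Lgr5 (chromosome 10, 115450311 to 115587780, minus strand) was at 0.266, 2.96 and 0.0490 FPKM in noggin replicates 1 to 3, against 0.808, 0.964 and 1.77 FPKM in control replicates 1 to 3. It reached 1 FPKM in 2 libraries, and its noggin values again lay on both sides of the controls, here with replicate 2 above. Lgr6, the third receptor of the family, was at 0.40 FPKM in noggin replicate 1 and at 0.0553 FPKM or less in the other 5 libraries. The log2 ratio of Lgr5 to Lgr4, with 1 FPKM added to each, was -2.48, -1.30 and -4.88 in noggin cells and -3.43, -3.16 and -2.83 in control cells, a mean difference of 0.25 (two-sided exact permutation p = 0.8) that changed sign with a smaller added value.

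The feedback genes most often read as Wnt reporters were near the bottom of the scale in both groups. Axin2 (chromosome 11, 108920349 to 108950783, plus strand) was at 0.153, 0.0136 and 0.0763 FPKM in noggin replicates 1 to 3, against 0.132, 0.0506 and 0.128 FPKM in control replicates 1 to 3. In noggin replicates 1 and 2, Nkd1 (chromosome 8, 88521354 to 88594884, plus strand) was at 0.0195 and 0.528 FPKM, and in replicate 3 it was listed at 0, against 0.171, 0.215 and 0.328 FPKM in control replicates 1 to 3. Ascl2, a basic helix-loop-helix factor (chromosome 7, 142966829 to 142969264, minus strand), was at 0.583, 1.5 and 0.0627 FPKM in noggin replicates 1 to 3, against 0.616, 0.524 and 0.805 FPKM in control replicates 1 to 3. For Nkd1, Ascl2 and Lgr5 alike, noggin replicate 2 held the highest value of the 6 libraries and noggin replicate 3 the lowest. Relatives of Nkd1 and Axin2 were similarly low or did not pass. Nkd2 was at 0.150 FPKM or less in every library. Axin1, the constitutive relative of Axin2, was well expressed, at 6.88, 10.8 and 6.18 FPKM in noggin cells and 15.6, 13.0 and 14.5 FPKM in control cells (-0.81, SE 0.286, limma adjusted p = 0.134), without overlap.

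**Figure D2:**
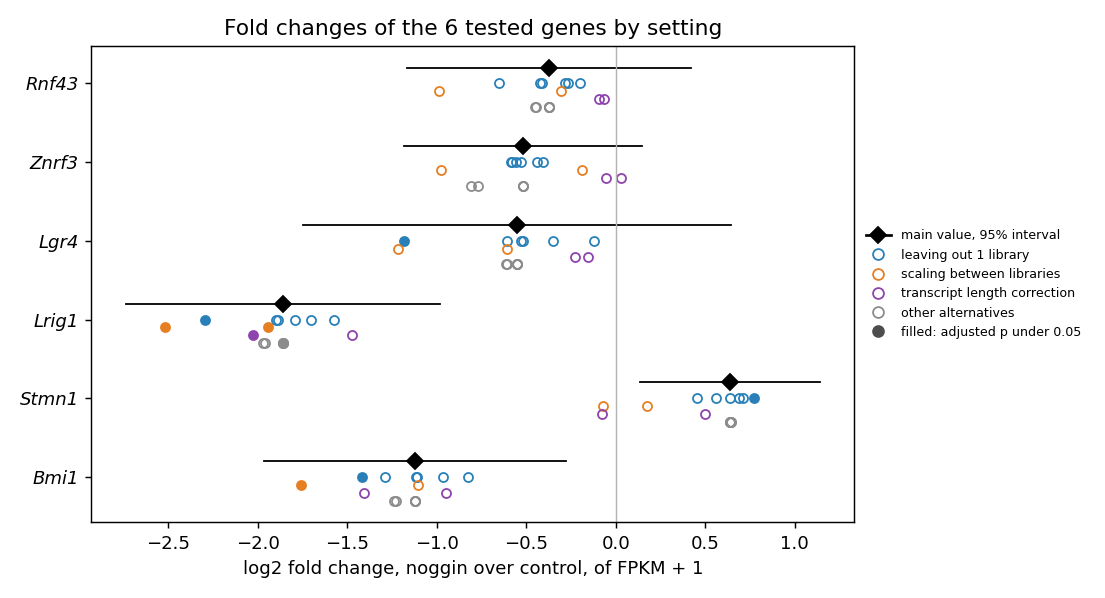
Log2 fold change (horizontal axis, noggin over control, of FPKM + 1) of the 6 tested genes. Black diamonds with bars give the main value and its 95% interval, circles give the alternatives by kind, and filled circles are adjusted p under 0.05. Lrig1 and Bmi1 stay below 0 in every setting, and Stmn1 crosses 0 with rescaling and with a length correction.

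Around these genes, 59 other genes of the Wnt pathway were tested, and 0 were called by limma. At an unadjusted p under 0.05 there were 21 of the 59, where 26.7% of all tested genes passed that mark. Of the 59, 46 had a negative log2 fold change (78.0%, where 51.7% of all tested genes did), with a median of -0.39 beside -0.03 for all tested genes. Groups did not overlap for 24 that were lower and 8 that were higher, or 40.7% and 13.6% of the 59, where 18.0% of all tested genes were lower and 20.3% higher without overlap. After the correction for the median transcript length the median of the 59 was -0.27, beside -0.005 for all tested genes. After that for the longest transcript, added after seeing the data, it was -0.13, beside -0.02 for all tested genes. It was -0.34 beside -0.02 after quantile normalization, and -0.97 beside -0.63 after rescaling to the same total FPKM.

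Ligands were scarce. Of 19 Wnt genes 3 were tested, and 13 stayed under 1 FPKM in every library. Wnt5b, a ligand known mainly from signalling without beta-catenin, had 0.478 and 0.317 FPKM in noggin replicates 1 and 2 and was listed at 0 in replicate 3, against 1.06, 1.11 and 1.32 FPKM in control cells (-0.79, SE 0.279, limma adjusted p = 0.133). Wnt4 (0.73, SE 0.489, adjusted p = 0.360) and Wnt11 (0.09, SE 0.539, adjusted p = 0.930) overlapped between groups. Wls, which carries Wnt proteins to the cell surface, was at 52.5 ± 21.9 FPKM in noggin and 54.8 ± 3.75 FPKM in control cells (-0.15, SE 0.309, adjusted p = 0.785), and Porcn, which acylates them, had -1.05 (SE 0.717, adjusted p = 0.369).

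All 8 tested receptors had negative log2 fold changes, with a median of -0.73, 0 calls and 7 of 8 lower without overlap, where 51.7% of all tested genes were negative and 18.0% lower without overlap. Of the 8, 5 were negative after the correction for the median transcript length, 6 after that for the longest transcript and 7 after quantile normalization. Fzd8, a Frizzled receptor, had 1.12 and 1.38 FPKM in noggin replicates 1 and 2 and was listed at 0 in replicate 3, against 3.85, 2.28 and 4.37 FPKM in control cells (-1.36, SE 0.421, limma adjusted p = 0.111). Fzd6 was at 1.95, 2.33 and 4.78 FPKM in noggin and 6.73, 6.59 and 7.80 FPKM in control cells (-1.06, SE 0.351, adjusted p = 0.122). The co-receptor Lrp6 was at 1.99, 1.85 and 0.159 FPKM in noggin and 3.05, 4.36 and 4.14 FPKM in control cells (-1.17, SE 0.431, adjusted p = 0.143). Of 14 extracellular inhibitors in the table, 2 were tested: Sfrp5, a secreted Frizzled-like inhibitor, was at 1.58, 3.81 and 4.66 FPKM in noggin and 0.498, 0.290 and 1.11 FPKM in control cells (1.37, SE 0.396, adjusted p = 0.101), and Kremen1, a Dickkopf receptor, had -1.05 (SE 0.526, adjusted p = 0.239).

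Inside the cell, 17 of 19 tested genes of the cytoplasmic relay had negative log2 fold changes, with a median of -0.50 and 0 calls, where 51.7% of all tested genes were negative. The median of the 19 was -0.34 after the correction for the median transcript length and -0.13, with 14 negative, after that for the longest transcript. After rescaling to the same total FPKM 5 of the 19 were called, all lower, where 8.93% of all tested genes were called in either direction. The median of the 19 was -1.07 in that setting, beside -0.63 for all tested genes. Ctnnb1, which encodes beta-catenin, was at 54.3, 59.7 and 73.0 FPKM in noggin and 87.7, 90.4 and 98.3 FPKM in control cells, without overlap (-0.56, SE 0.183, limma adjusted p = 0.119). Fbxw11, a subunit of the ligase that marks beta-catenin for degradation, had -1.17 (SE 0.363, adjusted p = 0.111), and Tnks2, a tankyrase that destabilises axin, had -1.09 (SE 0.340, adjusted p = 0.111). Of 14 tested nuclear genes 10 were negative, with a median of -0.26 and 0 calls, and 6 of 14 were negative after the correction for the longest transcript, with a median of 0.08. Without noggin replicate 3 the median of the 14 was -0.10. The corepressor Tle2 was at 10.4 ± 4.36 FPKM in noggin and 25.5 ± 1.95 FPKM in control cells (-1.30, SE 0.344, adjusted p = 0.0873; n = 3 each). Aes, a short relative of the Tle corepressors, had 0.51 (SE 0.233, adjusted p = 0.208), and -0.21 after rescaling to the same total FPKM and -0.27 after quantile normalization. Ctnnbip1, which blocks the binding of beta-catenin to Tcf factors, had 0.85 (SE 0.446, adjusted p = 0.257).

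Other genes known as Wnt targets split in direction. Of 12 tested, 8 were negative and 4 positive, 0 were called, and 9 had an unadjusted p under 0.05, where 26.7% of all tested genes did. After rescaling to the same total FPKM 4 of the 12 were called, all lower, where 8.93% of all tested genes were called in either direction. The median of the 12 was -1.01 in that setting, beside -0.63 for all tested genes. Quantile normalization gave 3 calls, Jun and Slc12a2 lower and Smoc2 higher, where 4.45% of all tested genes were called. In the main fit the median of the 12 was -0.64. It was -0.34 without noggin replicate 3, -0.27 after quantile normalization and -0.26 and -0.35 after the corrections for the median and the longest transcript. Smoc2, a secreted matrix protein of intestinal stem cells, was at 6.52, 8.81 and 11.7 FPKM in noggin and 1.16, 1.49 and 3.71 FPKM in control cells (1.74, SE 0.403, limma adjusted p = 0.0702). Slc12a2, a sodium, potassium and chloride cotransporter, was at 28.4 ± 14.0 FPKM in noggin and 59.2 ± 5.43 FPKM in control cells (-1.13, SE 0.329, adjusted p = 0.101), and Rgmb, a BMP co-receptor, had -0.86 (SE 0.273, adjusted p = 0.115).

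Markers of gastric stem and progenitor cells gave 1 call among 16 tested, where 2.44% of all tested genes were called, 1.75% higher. Of the 16, 9 were positive and 7 negative, where 51.7% of all tested genes were below 0. The median of the 16 was 0.37, beside -0.03 for all tested genes. After rescaling to the same total FPKM the median was -0.29, beside -0.63 for all tested genes. Without noggin replicate 2 it was 0.08, with noggin replicate 1 left out it was 0.57, and leaving out control replicate 2 or 3 gave 0.62 or 0.60. Calls rose to 6 of 16 without noggin replicate 2, where 19.0% of all tested genes were called. There were 2 after quantile normalization (4.45% of all tested genes called) and 2 without noggin replicate 3 (4.65% called). A filter of 5 FPKM gave 2 among 11 tested (3.77% called), and rescaling to the same total FPKM gave 0. Aqp5, an aquaporin of mucous neck cells and of antral stem cells, rose to 96.6, 90.5 and 31.3 FPKM in noggin cells, against 9.87, 13.5 and 16.5 FPKM in control cells (2.24, SE 0.438, limma adjusted p = 0.0483). The call held in 6 of 16 alternatives, with adjusted p from 0.0101 to 0.210, and was lost without noggin replicate 1 or without control replicate 1, 2 or 3, at 1.95 to 2.40. Aqp5 is itself in the list of mucous neck cell genes whose sums are given above, and the part of those cells was not tested. Clu, which encodes the chaperone clusterin, was at 2858 ± 664 FPKM in noggin and 1101 ± 320.2 FPKM in control cells (1.39, SE 0.311, adjusted p = 0.0647), and Epcam, an epithelial adhesion protein, was at 354 ± 39.2 and 186 ± 38.0 FPKM in these groups (0.94, SE 0.215, adjusted p = 0.0668; n = 3 each).

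**Figure D3:**
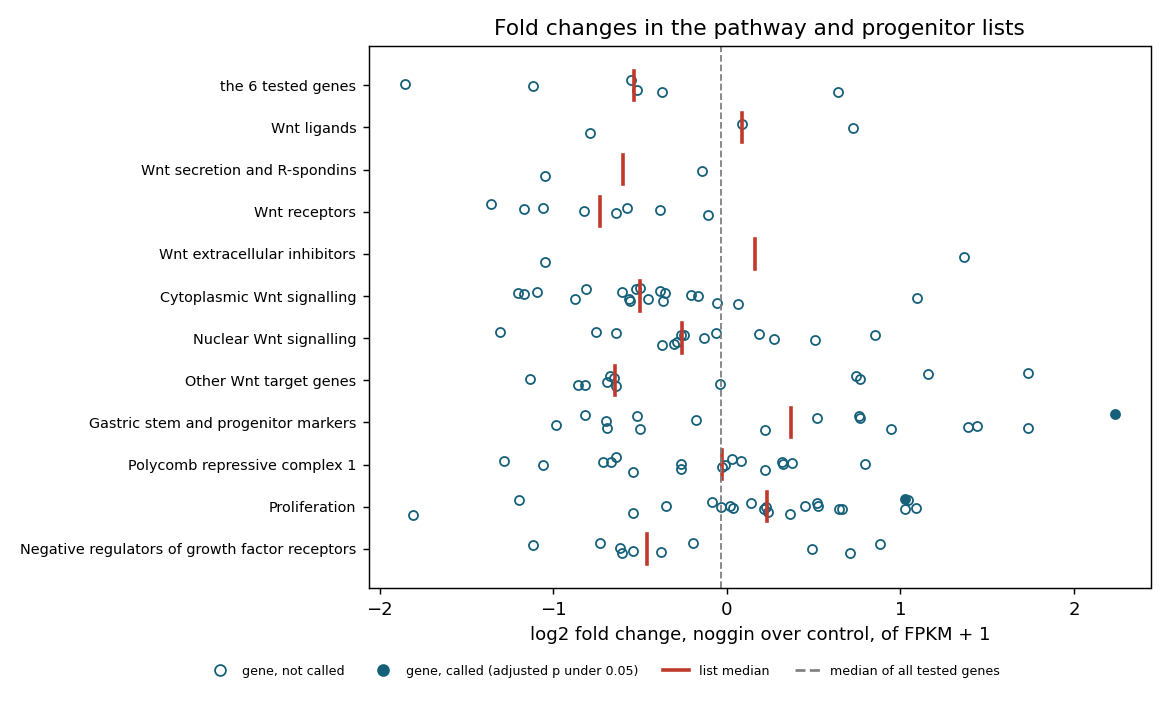
Log2 fold change (horizontal axis, noggin over control, of FPKM + 1) of each tested gene in the pathway and progenitor lists, with the list median in red and the median of all tested genes, -0.03, as a dashed line. Of all genes shown, Aqp5 and H2afz are called (filled), and all 8 Wnt receptors lie below 0 in this fit, where a correction for transcript length leaves 5 or 6 of the 8 below 0.

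Transcript length moved with the fold changes. Across 10541 tested genes with an annotated length, which are not independent replicates, the log2 fold change had a Spearman correlation of -0.511 with the longest transcript and of -0.293 with the median transcript length of a gene. By quartile of the longest transcript, the median log2 fold change was 0.55 up to 2035 bases, 0.07 from 2036 to 3188 bases, -0.25 from 3189 to 4577 bases and -0.47 from 4578 bases. Stmn1, at 1060 bases, is in the shortest quartile. Bmi1 (3594 bases) and Rnf43 (4310 bases) are in the third, and Lrig1 (4951 bases), Lgr4 (5060 bases) and Znrf3 (6311 bases) in the longest. The fold changes of Stmn1, Rnf43, Lgr4 and Znrf3 lay near the median of their quartile, and those of Lrig1 and Bmi1 lay below it. After removal of the length trend by the longest transcript, Lrig1 was at -1.47 (SE 0.308, limma adjusted p = 0.0776) and Bmi1 at -0.95 (SE 0.320, adjusted p = 0.201). In that setting Lgr4, Rnf43 and Znrf3 were at -0.16, -0.06 and -0.05.

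**Figure D4:**
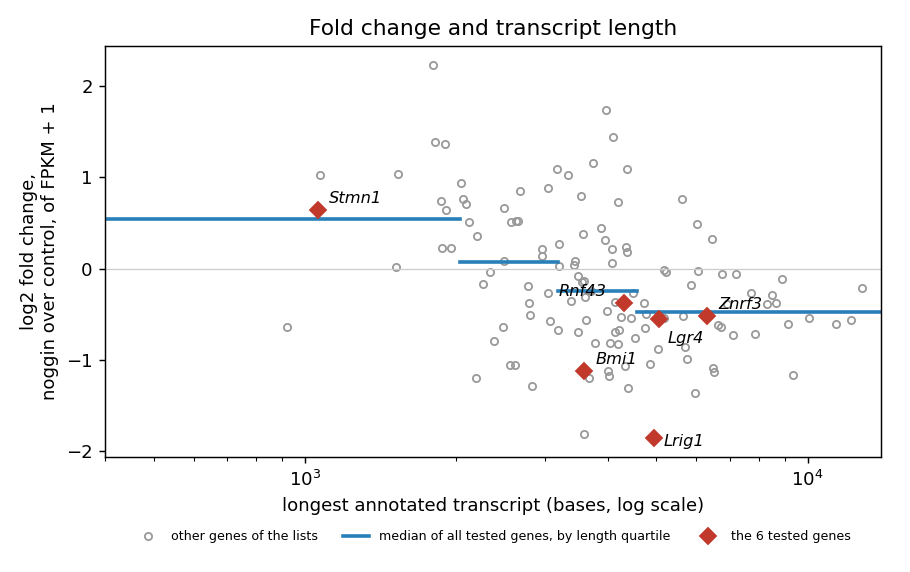
Log2 fold change (vertical axis, noggin over control, of FPKM + 1) against the longest annotated transcript (horizontal axis, bases, log scale) of the 6 tested genes (diamonds) and of the other list genes (circles), with the median of all tested genes by length quartile (blue lines, drawn to the edge of the plot). Lrig1, at -1.86, lies below the line of its quartile, at -0.47, and Stmn1, at 0.64, lies close to the line of its own, at 0.55.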

How the data were processed

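RNA of 3 noggin and 3 control libraries was measured by sequencing, from at least 1 ng of total RNA with a SMART-Seq Ultra Low Input kit and 50 bp single-end reads, per the labels' protocols. The deposited table holds FPKM made by the authors, with 1 column for each library. The submitters' processing notes name mm10, bcl2fastq and FastQC 0.10.0. The sources used here name no aligner, quantifier or annotation and do not say whether strand was kept, so overlapping genes on opposite strands cannot be told apart.

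Groups and replicate numbers came from the sample titles. The 10 genes and the gene lists were chosen with earlier results of these data known. Values were taken as log2(FPKM + 1), genes that reached 1 FPKM in 3 or more libraries were kept, and limma 3.58.1 (R 4.3.3, mean-variance trend, two-sided, group as the only term) gave fold changes, with Benjamini-Hochberg adjustment over all 10644 genes. All adjusted p-values printed are limma's. The fit was tested on simulated data with independent noise, of equal spread in both groups for a gene. That simulation built in no length trend, outlying library or group difference in total FPKM, so it cannot speak to them. Single ratios were compared by exact permutation. The 10 genes and their nearest relatives are always named, with up to 3 genes a list: called genes by size, then the smallest p. Some of these relatives and markers are not reported here. Gene symbols were matched to GENCODE M21 (20911 by symbol, 1914 by a synonym, 459 not matched), and lengths are of its transcripts. Alternatives varied the pseudocount, filter, scaling, trend, length correction, replicate block and libraries.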

Additional observations from a re-analysis of the deposited data

How the results depend on the processing

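Over 16 alternatives, Lrig1 and Bmi1 stayed negative in each, from -2.52 to -1.47 and from -1.76 to -0.83, and so did Lgr4 (-1.22 to -0.12) and Rnf43 (-0.99 to -0.06). Of the 6 genes, 1 was called with a filter of 5 FPKM (Lrig1), where 3.77% of all tested genes were called. After rescaling to the same total FPKM 2 were called (Lrig1 and Bmi1), where 8.93% of all tested genes were. Quantile normalization, where 4.45% of all tested genes were called, gave 1 (Lrig1). Where 1.69% of all tested genes were called, 1 of the 6 was (Lrig1), after the correction for the median transcript length. That median is 700 bases for Lrig1 and 521 for Bmi1, well under their longest transcripts of 4951 and 3594 bases, so a correction by the longest transcript was added after seeing the data, and it called 0. Of the 59 other Wnt genes, 13 were called after rescaling, all lower, where 8.93% of all tested genes were called. That rescaling moved the median of all tested genes to -0.63. Quantile normalization gave 4 calls among the 59, 3 of them lower, where 4.45% of all tested genes were called. Leaving out a library gave 0 to 3 calls among the 6 genes and 0 to 9 among the 59. The highest of these counts, 3 and 9, came without noggin replicate 2, where 19.0% of all tested genes were called. Without noggin replicate 3 there were 1 and 3, where 4.65% of all tested genes were called. Stmn1 turned to -0.072 after rescaling and -0.076 with the longest-transcript correction, and Znrf3 to 0.031 with the median-length correction. The log2 ratio of Rnf43 to Znrf3 differed by -0.074 to 0.33 when a library was left out, negative without noggin replicate 3, and that of Lgr5 to Lgr4 by -0.54 to 1.25, negative without noggin replicate 2, and by -0.54 and -1.01 with 0.1 and 0.01 FPKM added. Over all tested genes the share called was 2.44%, and 0.0192% to 19.0% over the alternatives. The cause of these changes was not tested.

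Same-numbered noggin and control libraries deviated from their group means with correlations across genes of 0.11, -0.14 and 0.01. With 3 libraries a group, these values cannot decide whether the replicate numbers pair the libraries. With a replicate block, 0 of the 6 genes and 0 of the 59 Wnt genes were called, at an adjusted p of 0.0508 for Lrig1. Depth is unknown, which limits what can be said of Axin2, Nkd1, Ascl2 and Lgr5.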
